A study of Mus musculus with 12 samples.

Results

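The genes that license replication origins and build the replication fork were followed in mouse embryonic stem cells, in 2 cell lines and 2 states. The set was fixed by name: 44 genes, all 44 of which matched a single identifier among the 55416 genes of the deposited count tables, and all 44 of which passed the filter on low counts that left 17940 genes for testing. The study compared a Bl/6J embryonic stem cell line labelled WT with a line derived from it, labelled Oct4 C48S clone 46, in which the name gives a serine for a cysteine in the pluripotency factor Oct4 (gene Pou5f1). Both lines were sequenced undifferentiated, in medium with the MEK inhibitor PD (1 µM), the GSK3b inhibitor CHIR (3 µM) and ascorbic acid, and after 2 days without LIF in retinoic acid (RA, 1.5 mg/L), with 3 libraries in each of the 4 groups. RA and the absence of LIF came together, and PD and CHIR are given for the undifferentiated libraries only. What belongs to RA and what belongs to the rest of the medium therefore cannot be told apart. A change with RA below means the whole change of medium. The mutant line is 1 clone, so what belongs to the substitution and what belongs to the clone cannot be told apart. The titles and the protocol give day 2 for all RA libraries, while the treatment field of the labels gives a later day for 5 of the 6 (days 3 to 7). The counts of Pou5f1 do not show the substitution and so do not check the genotype.

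Before S phase the origin recognition complex (Orc1 to Orc6) marks origins, and Cdc6 and Cdt1 load onto them the ring of Mcm2 to Mcm7, the core of the replicative helicase. Gmnn (geminin) blocks Cdt1 once S phase has begun. Cdc45 and the GINS complex then join the ring to form the active helicase, the RPA complex coats the unwound strands, polymerase alpha with primase lays the primers, the RFC complex loads the sliding clamp Pcna, polymerases epsilon and delta copy the strands, and Fen1 and Lig1 join Okazaki fragments. Ribonucleotide reductase (Rrm1, Rrm2), thymidylate synthase (Tyms) and thymidine kinase (Tk1) supply deoxynucleotides. Embryonic stem cells are known for a short G1 phase and a large share of cells in S phase, and many of these genes are known targets of E2F factors.

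The start regions of 6 members are shown because, of the members in the promoter table, these had the largest mean change with RA over both lines. Mcm4, whose mean fall was larger than that of Pcna, was not in that table. They run 5′ to 3′ on the gene's strand from 250 bases before to 50 bases after the start (RefSeq, build GRCm38.p6), which is an older build than that of the counts. Mcm2 lies at chr6:88898731-88899030 (minus strand), Mcm10 at chr2:5012742-5013041 (minus), Tk1 at chr11:117825965-117826264 (minus), Rrm2 at chr12:24708004-24708303 (plus), Mcm3 at chr1:20820263-20820562 (minus) and Pcna at chr2:132253131-132253430 (minus). Capitals mark the E2F-type letters TTCCCGC or TTGGCGC and the letters CCAAT, each on either strand.
Mcm2: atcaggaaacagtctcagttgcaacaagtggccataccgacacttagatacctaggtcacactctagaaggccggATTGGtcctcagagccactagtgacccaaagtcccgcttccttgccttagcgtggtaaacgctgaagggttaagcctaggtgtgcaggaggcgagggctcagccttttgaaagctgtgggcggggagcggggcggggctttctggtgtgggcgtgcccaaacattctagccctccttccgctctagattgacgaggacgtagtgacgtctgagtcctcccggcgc
Mcm10: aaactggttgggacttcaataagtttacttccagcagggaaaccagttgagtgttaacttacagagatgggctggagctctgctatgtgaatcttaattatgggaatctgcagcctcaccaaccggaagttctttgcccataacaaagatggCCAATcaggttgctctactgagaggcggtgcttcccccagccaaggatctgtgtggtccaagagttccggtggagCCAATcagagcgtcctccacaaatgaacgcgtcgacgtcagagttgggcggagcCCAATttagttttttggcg
Tk1: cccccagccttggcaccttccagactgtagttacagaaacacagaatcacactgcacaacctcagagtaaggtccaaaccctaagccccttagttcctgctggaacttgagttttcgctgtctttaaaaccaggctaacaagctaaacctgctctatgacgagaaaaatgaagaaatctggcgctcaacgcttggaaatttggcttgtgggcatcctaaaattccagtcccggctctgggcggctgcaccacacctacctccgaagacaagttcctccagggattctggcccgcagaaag
Rrm2: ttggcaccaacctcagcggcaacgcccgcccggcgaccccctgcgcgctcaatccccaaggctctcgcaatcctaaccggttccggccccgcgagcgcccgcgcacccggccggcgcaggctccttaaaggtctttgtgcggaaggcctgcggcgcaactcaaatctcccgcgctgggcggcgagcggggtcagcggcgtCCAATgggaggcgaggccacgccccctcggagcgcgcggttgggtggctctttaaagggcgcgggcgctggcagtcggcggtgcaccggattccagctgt
Mcm3: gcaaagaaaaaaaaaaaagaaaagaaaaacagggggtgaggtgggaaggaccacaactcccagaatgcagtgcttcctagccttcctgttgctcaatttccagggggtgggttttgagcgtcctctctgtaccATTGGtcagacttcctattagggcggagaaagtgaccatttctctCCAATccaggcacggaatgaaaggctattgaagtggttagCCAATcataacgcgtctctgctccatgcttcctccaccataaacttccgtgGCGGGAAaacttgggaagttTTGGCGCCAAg
Pcna: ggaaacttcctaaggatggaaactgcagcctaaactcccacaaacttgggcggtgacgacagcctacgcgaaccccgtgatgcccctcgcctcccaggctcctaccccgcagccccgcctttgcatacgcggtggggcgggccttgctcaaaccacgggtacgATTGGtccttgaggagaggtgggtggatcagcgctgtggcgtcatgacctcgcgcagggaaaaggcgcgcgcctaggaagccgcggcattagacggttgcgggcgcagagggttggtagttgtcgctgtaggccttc

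Of these 6 windows only that of Mcm3 held E2F-type letters, with 3 matches, of which those at the end of the window overlap on opposite strands. CCAAT was found in 5 of the 6, and not in that of Tk1. Of the 44 members, 36 were in the promoter table; Prim2, Gmnn, Pole, Rfc2, Gins1, Gins2, Gins4 and Mcm4 were not. E2F-type letters were present for 20 of the 36 (55.6%, Wilson 95% interval 39.6% to 70.5%), against 7.79% of all 27025 genes in the table and 13.6% of the 12086 that were also tested here. CCAAT was present for 63.9% of the members and 43.0% of the tested genes, and the CHR-type letters TTTGAA or TTCGAA (either strand) for 19.4% and 16.4%. The 20 members with E2F-type letters had a median mean RA change of -0.62 (log2) and the 16 without had -0.88, a difference that was not tested. The split depends on the letters chosen: Orc1, counted among those without, held 1 match to E2F-type letters of 8 bases. A match is a description of the letters, not a binding site.

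Library totals ran from 8678088 to 13597098 counts assigned to genes. Levels are given as CPM, counts relative to the library total, with totals scaled by TMM, and changes as log2 ratios ± SE from edgeR's quasi-likelihood test on all 12 libraries, with Benjamini-Hochberg adjusted p over the 17940 genes and calls at an adjusted p under 0.05. The third undifferentiated C48S library stood apart: its counts differed from those of its group by a chi-square of 9.7 to 9.94 per degree of freedom, against 1.59 to 2.26 for the other pairs within groups. In it the members lay a median 0.06 (log2) above the other 2 libraries of its group, from -0.32 for Tyms to 0.58 for Rpa3. All 12 embryonic stem cell markers were detected in every group, with summed levels of 6550 to 6739 CPM in undifferentiated WT, 6783 to 6972 in undifferentiated C48S, 629 to 655 in WT with RA and 1111 to 1149 in C48S with RA. All 16 fibroblast and feeder markers were above 0 too, at 2994 to 3180, 2953 to 3841, 1304 to 1432 and 2343 to 2532 CPM in the same order, most of it from Fn1 (2642 ± 79.4 CPM, SD, n = 3, in undifferentiated WT). Both marker sums move with the RA comparisons and, after RA, with the comparison of the lines, and their part in the results below was not tested.

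With RA the replication genes fell together in both lines. In WT 38 of the 44 fell, 3 rose (Gins3, Rpa1 and Prim2) and 3 passed in neither direction (Orc3, Rfc3 and Rfc4), where 37.4% of all genes tested fell and 40.9% rose. In C48S 40 fell, 1 rose (Rfc4) and 3 did not pass (Rfc3, Rpa1 and Pole), against 34.6% of all genes falling and 39.0% rising. The median change of the members was -0.78 in WT and -0.59 in C48S (log2), beside medians over all genes tested of 0.055 and 0.049. Their summed level was 8976 ± 84.9 CPM in undifferentiated WT and 5154 ± 48.7 in WT with RA, and 9819 ± 180 and 6087 ± 126 in C48S (SD, n = 3). As shares of the library these sums were 0.9% and 0.52% in WT, and 0.98% and 0.61% in C48S. In bulk samples such as these, fewer cells of a type and less RNA per cell cannot be told apart.

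**Figure D1:**
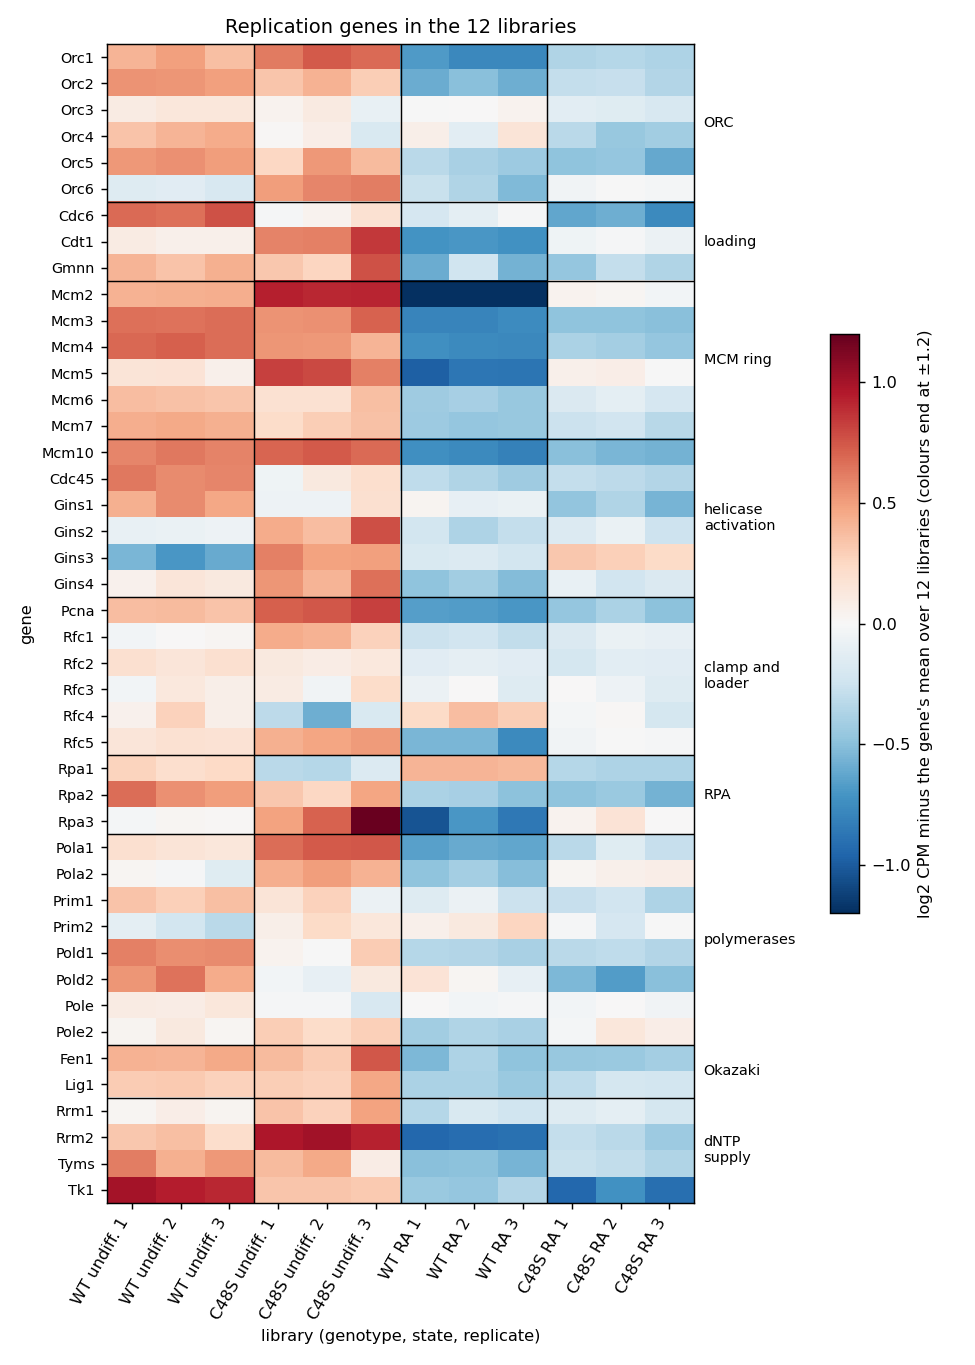
Level of each of the 44 genes in each of the 12 libraries, as log2 CPM minus the gene's own mean over the 12 libraries (red above it, blue below it, colours ending at ±1.2), with genes grouped by role and libraries by group. Most rows are red in the 6 undifferentiated libraries and blue in the 6 RA libraries; Gins3, Prim2, Rpa1 and Rfc4 are among those that are not.

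Across the 44 genes the changes in the 2 lines, which share no library, had a Pearson r of 0.80 and a Spearman rho of 0.81, with the same sign for 40 genes. Over all genes tested r was 0.82. These are correlations across genes, which are not independent replicates. The calls had opposite signs in the 2 lines for Gins3 and Prim2, which rose in WT and fell in C48S.

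**Figure D2:**
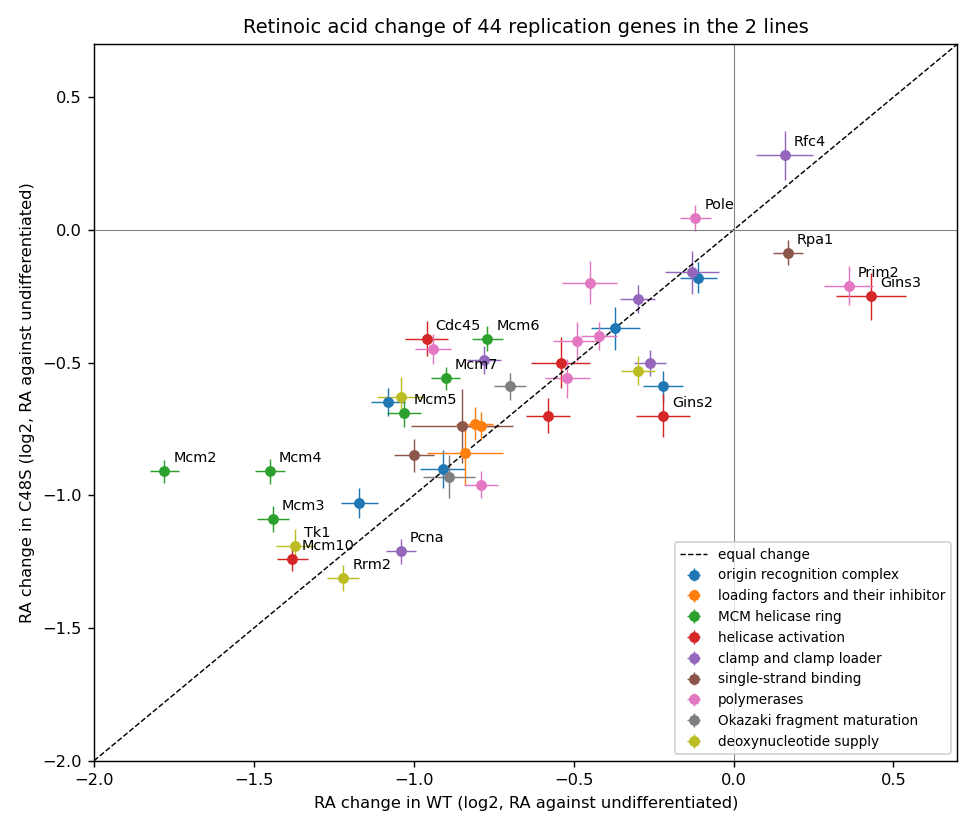
Change with RA in WT (x axis) against change with RA in C48S (y axis), both log2 of RA against undifferentiated, with bars of 1 SE from edgeR, coloured by role; the dashed line marks equal change. Mcm2 lies farthest from the line (-1.78 in WT, -0.91 in C48S), the other ring genes lie above it, and Gins3 and Prim2 lie to the right of 0 and below 0.

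Between the lines in the undifferentiated state the members differed in both directions. In C48S 18 were higher and 16 lower than in WT, where 27.5% of all genes tested were higher and 28.1% lower, and the members' median was 0.042 (log2) beside 0.0014 for all genes. Without the third C48S library the counts were again 18 and 16, and the median was -0.059. The totals were the same but not the genes. Prim1, Tyms and Pole2 were no longer called, and members not called with all libraries passed instead. After RA 23 were higher and 9 lower in C48S, against 28.8% and 25.7% of all genes, with a median of 0.15 beside 0.023. The differences before and after RA, which share no library, had a Pearson r of 0.75 and a Spearman rho of 0.77 over the members. The sign was the same for 35 of the 44, and r over all genes tested was 0.51. Of the 44, 12 lie on chromosomes 6, 8 and 11, whose levels differed between the lines in both states (next paragraph). Their part in the r of 0.75 was not tested.

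Members on chromosomes 6, 8 and 11 differed more between the lines than the other members did, in the direction of their chromosome. Protein-coding genes averaging 1 CPM or more gave chromosome-wide medians of C48S minus WT. For the 659 such genes of chromosome 6 the median was 0.58 undifferentiated and 0.63 with RA, for the 739 of chromosome 8 it was 0.52 and 0.58, and for the 1167 of chromosome 11 it was -0.53 and -0.48. Mcm2 and Rpa3 on chromosome 6 were both higher in C48S in both states. Of the 6 members on chromosome 8 (Orc6, Cdt1, Mcm5, Gins2, Gins3 and Gins4), all 6 were higher before RA and 5 after it, Gins2 being the exception. Of all genes tested 27.5% were higher before RA and 28.8% after it. The 4 on chromosome 11 (Cdc6, Rpa1, Pold2 and Tk1) were lower in both states, against 28.1% and 25.7% of all genes tested. Called genes were not counted per chromosome, so these counts do not set the members apart from their chromosomes. For these 12 members the median absolute difference was 0.62 before RA and 0.096 once the chromosome's median was subtracted, and 0.57 and 0.24 after RA. For the 32 members elsewhere it was 0.20 and 0.22 before RA, and 0.21 and 0.21 after it. Of these 32, 10 were higher and 12 lower before RA (31.2% and 37.5%, against 27.5% and 28.1% of all genes tested). After RA 16 were higher and 5 lower (50.0% and 15.6%, against 28.8% and 25.7%). What sets the level of these chromosomes was not tested.

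**Figure D3:**
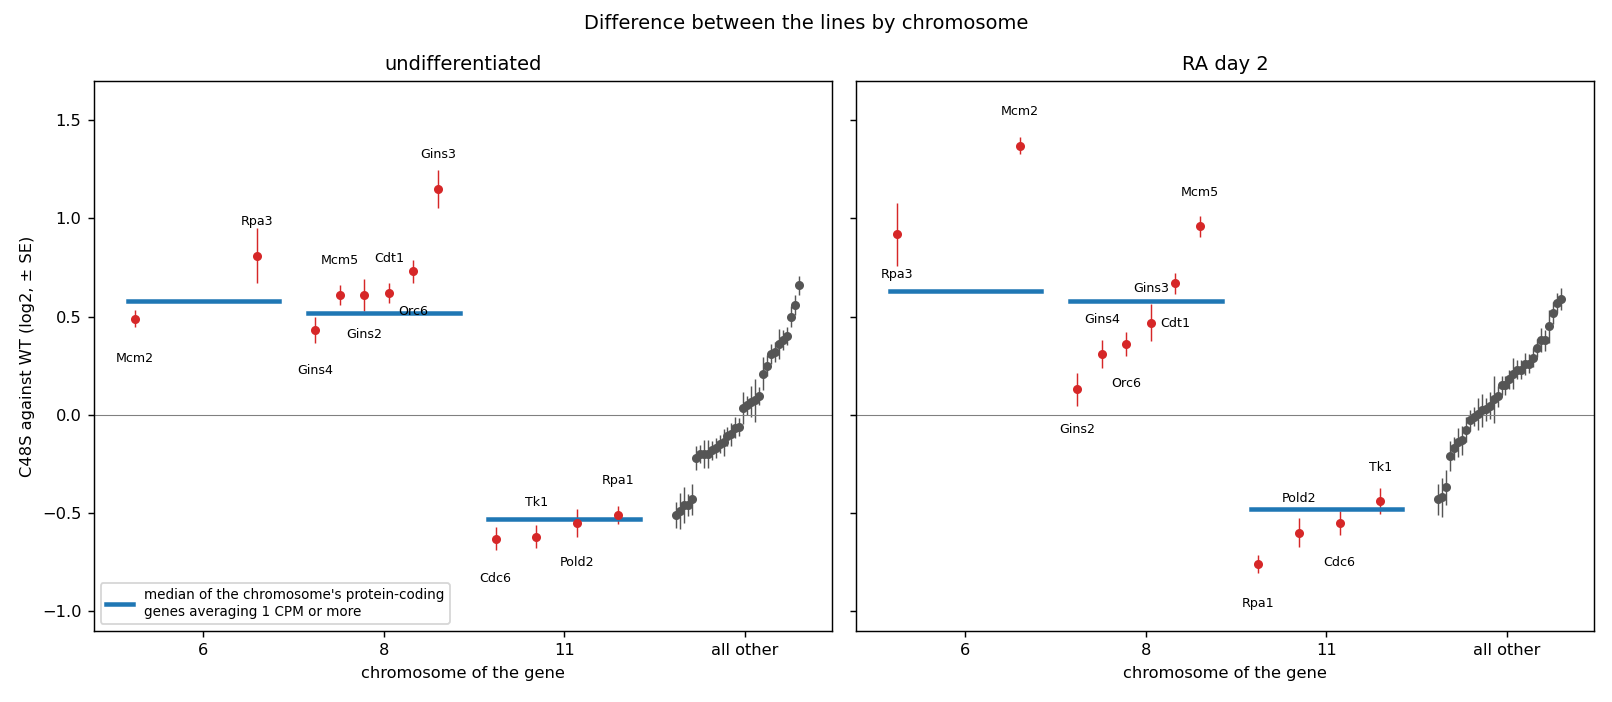
Difference of C48S from WT (log2 ± SE) for each of the 44 genes, by chromosome, undifferentiated (left) and at day 2 of RA (right); blue bars are the median over the chromosome's protein-coding genes averaging 1 CPM or more. The 12 named genes lie near the bars before RA except Gins3 (1.15), and Mcm2 (1.37) lies well above its bar after RA.

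The RA response itself differed between the lines for 20 of the 44 members, by the interaction test of the change in C48S minus that in WT. It was positive for 12 (27.3%) and negative for 8 (18.2%), shares near the 22.2% and 17.2% of all genes tested, with a median of 0.058 beside 0.023. The positive ones, mostly smaller falls in C48S, were Orc2, all 6 ring genes, Cdc45, Rfc5, Pold1, Pole and Tyms. The negative ones were Orc6, Gins2, Gins3, Pcna, Rfc1, Rpa1, Prim2 and Rrm1. Without the third undifferentiated C48S library 15 were positive and 10 negative. Pole was then no longer called, and the members gained are not named here.

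**Figure D4:**
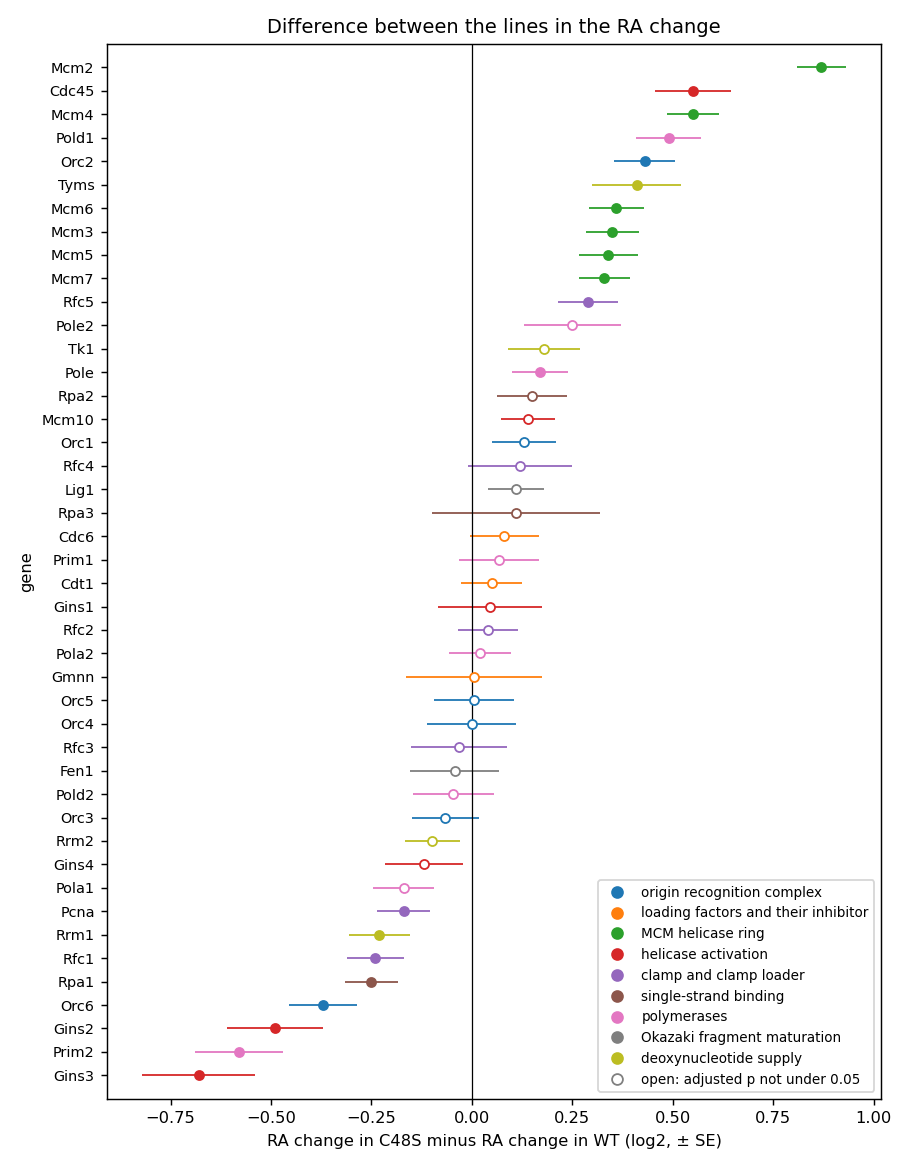
Change with RA in C48S minus change with RA in WT (x axis, log2, bars of 1 SE) for the 44 genes in order of that value, coloured by role; filled points have an adjusted p under 0.05 and open points do not. The 6 green ring genes are all filled and lie between 0.33 (Mcm7) and 0.87 (Mcm2), and Gins3 is lowest at -0.68.

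The helicase ring held the 3 largest falls in WT (Mcm2, Mcm4 and Mcm3). Of the 9 roles it was the only one in which every gene passed the interaction test. Positive interactions were called for 22.2% of all genes tested and for 56.0% of 25 mitosis genes described below. Mcm2 (chromosome 6, 88860456 to 88875762, minus strand, GRCm39) was at 691, 695 and 698 CPM in undifferentiated WT, 985, 971 and 976 in undifferentiated C48S, 202, 200 and 205 in WT with RA, and 534, 526 and 504 in C48S with RA. No libraries of different groups overlapped, and the C48S libraries with RA lay nearer to undifferentiated WT than the WT libraries with RA did. Mcm2 fell by 1.78 ± 0.045 in WT (3.43-fold, adjusted p = 3.95e-28) and by 0.91 ± 0.043 in C48S (1.87-fold, adjusted p = 8.93e-20), and the difference of 0.87 ± 0.061 passed the interaction test (adjusted p = 4.22e-14). Its difference between the lines was 0.49 before RA, which is -0.091 relative to its chromosome's median, and 1.37 after RA, which is 0.73 above that median. The region before its start is the first of the windows printed above, with 1 CCAAT and no E2F-type letters.

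Mcm5 (chromosome 8, 75836197 to 75855067, plus strand) was at 532, 534 and 497 CPM in undifferentiated WT and 843, 825 and 724 in C48S. With RA it was at 242, 262 and 260 in WT and 499, 505 and 477 in C48S, so the C48S libraries with RA overlapped those of undifferentiated WT. It fell by 1.03 ± 0.053 in WT and by 0.69 ± 0.051 in C48S. Its difference between the lines was 0.61 before RA, or 0.095 above its chromosome's median, and 0.96 after RA, or 0.38 above it. Mcm3 was at 488, 484 and 491 CPM in undifferentiated WT, 448, 451 and 503 in C48S, 178, 178 and 183 in WT with RA, and 221, 221 and 218 in C48S with RA. The undifferentiated groups overlapped and the RA groups did not. Mcm4 was at 525, 534 and 520, then 469, 468 and 433, then 195, 192 and 190, and then 250, 246 and 236 CPM in the same order, lower in C48S before RA and higher after it. Mcm6 and Mcm7 fell least, by 0.77 and 0.90 in WT and by 0.41 and 0.56 in C48S.

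All 6 ring genes fell in both lines, with a median of -1.24 in WT and -0.80 in C48S. Of all genes tested 37.4% fell in WT and 34.6% in C48S. After RA all 6 ring genes were higher in C48S, by 0.18 (Mcm7) to 1.37 (Mcm2). So were 28.8% of all genes tested and 52.0% of the mitosis genes. Before RA 2 ring genes were higher (Mcm2, Mcm5), 2 lower (Mcm4, Mcm7) and 2 passed in neither direction. The interaction was positive for all 6 ring genes, with a highest adjusted p of 0.00027 in edgeR's test. Summed per kilobase of exon, the ring was at 755 ± 7.94 and 819 ± 1.73 CPM per kb in undifferentiated WT and C48S, and at 333 ± 2.08 and 487 ± 12.9 with RA (SD, n = 3). Before RA only Mcm2 (99.9 in WT, 141 in C48S) and Mcm5 (131 and 200), on chromosomes 6 and 8, had higher means in C48S. The other ring genes had lower ones. With RA the widest gaps were again those of Mcm2 (29.1 and 74.9) and Mcm5 (63.7 and 124). The subunits are known to enter the ring in equal number, and the proportions of their RNA differed between the groups without overlap for the pair of Mcm2 and Mcm6. The level of Mcm2 per kb relative to that of Mcm6 was 0.861 ± 0.0163 in undifferentiated WT, 1.31 ± 0.0918 in undifferentiated C48S, 0.429 ± 0.0133 in WT with RA and 0.924 ± 0.0251 in C48S with RA. Between the lines Mcm2 differed by 0.49 before RA and 1.37 after it (log2), beside medians of 0.58 and 0.63 for its chromosome. In WT with RA Mcm2 had the lowest level per kb of the ring (29.1 ± 0.354) and Mcm7 the highest (71.1 ± 0.716). In C48S with RA the lowest was Mcm3 (58.6 ± 0.503) and the highest Mcm5 (124 ± 3.8).

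**Figure D5:**
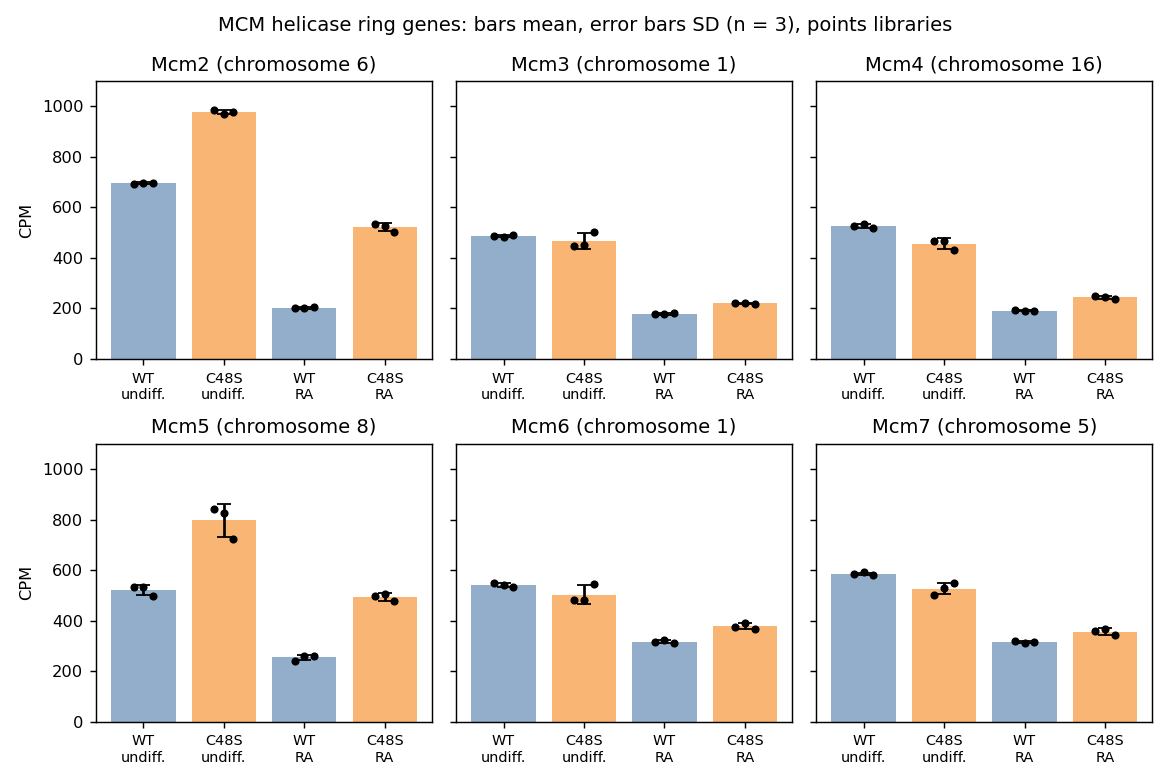
CPM of the 6 ring genes in the 4 groups (bars, mean; error bars, SD, n = 3; points, libraries), all panels on 1 scale from 0. RA bars are lower than undifferentiated bars of the same line in every panel, and the C48S bar with RA is above the WT bar with RA in every panel, most for Mcm2 (534, 526 and 504 against 202, 200 and 205).

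Among the loading factors, Cdc6, Cdt1 and the inhibitor Gmnn all fell in both lines, and none passed the interaction test. Cdc6, on chromosome 11, was at 191, 188 and 202 CPM in undifferentiated WT, 118, 123 and 135 in C48S, 104, 110 and 118 in WT with RA, and 77.3, 79.2 and 70.2 in C48S with RA. It fell by 0.81 ± 0.059 in WT and by 0.73 ± 0.061 in C48S. Cdt1, on chromosome 8, was at 272, 265 and 266 in undifferentiated WT, 384, 387 and 459 in C48S, 155, 157 and 154 in WT with RA, and 245, 251 and 242 in C48S with RA. The lines thus differed in opposite directions for the partners, with no overlap of libraries in either state: Cdc6 by -0.63 and -0.55, Cdt1 by 0.62 and 0.67. The median differences of their chromosomes were of similar size (-0.53 and -0.48 for chromosome 11, 0.52 and 0.58 for chromosome 8). Gmnn fell by 0.84 ± 0.12 in each line and did not pass between the lines in either state. The ratio of Cdt1 to Gmnn per kb was 2.05 ± 0.0589 in undifferentiated WT and 2.16 ± 0.263 in WT with RA, and 3.02 ± 0.283 and 3.20 ± 0.173 in C48S, so the lines did not overlap in either state, and within a line the states did.

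In the origin recognition complex, 5 of 6 genes fell in WT and 6 of 6 in C48S, against 37.4% and 34.6% of all genes tested. The 6 genes were far from equal in level. Orc1, the subunit known to vary most over the cell cycle, fell by 1.17 ± 0.058 in WT and by 1.03 ± 0.056 in C48S, from 118, 125 and 114 CPM to 55.5, 52.1 and 52.1 in WT. Orc2 fell by 1.08 in WT and by 0.65 in C48S, and the difference of 0.43 ± 0.076 passed the interaction test (adjusted p = 2.19e-05). Orc3 moved least, by -0.11 in WT (adjusted p = 0.091) and -0.18 in C48S. It was at 76.7, 77.1 and 79.0 CPM in WT with RA and 70.5, 69.4 and 67.3 in C48S with RA. Orc4, the lowest of the complex per kb in undifferentiated WT (8.51 ± 0.31), was lower in C48S by 0.43 in both states. Its libraries with RA were at 50.4, 44 and 53.7 CPM in WT and 38.4, 35.1 and 36.1 in C48S. Orc5 fell by 0.91 and 0.90 in the 2 lines and did not pass between them.

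Orc6, on chromosome 8, was at 83.3, 84.8 and 81.3 CPM in undifferentiated WT, 132, 140 and 142 in C48S, 77.5, 72.6 and 64.4 in WT with RA, and 90.5, 92.4 and 91.4 in C48S with RA. It was higher in C48S by 0.73 before RA and by 0.36 after it, and the interaction was -0.37 ± 0.084 (adjusted p = 0.000479). The ratio of Orc1 to Orc4 per kb was 4.03 ± 0.26 in undifferentiated WT, 6.5 ± 0.613 in undifferentiated C48S, 2.33 ± 0.234 in WT with RA and 4.08 ± 0.22 in C48S with RA.

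Among the helicase activators the members split. Mcm10, which helps the loaded helicase to start, was at 239, 247 and 241 CPM in undifferentiated WT, 258, 265 and 254 in C48S, 95.3, 93.6 and 90.8 in WT with RA, and 112, 109 and 107 in C48S with RA. It fell by 1.38 ± 0.049 in WT and by 1.24 ± 0.047 in C48S. Cdc45 was at 99.6, 94.9 and 95.9 CPM in undifferentiated WT and 61.9, 69.4 and 73.6 in C48S, but at 51.8, 49.8 and 47.8 against 52.6, 51.4 and 50.2 with RA. It was lower in C48S by 0.51 ± 0.064 before RA (adjusted p = 2.37e-08), and with RA the groups overlapped. Its interaction was 0.55 ± 0.094 (adjusted p = 1.03e-05).

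Gins3 (chromosome 8, 96360081 to 96371688, plus strand), a subunit of GINS, was at 13.3, 12 and 12.8 CPM in undifferentiated WT, 29.6, 27.2 and 27.4 in C48S, 17.2, 17.4 and 16.7 in WT with RA, and 24.4, 23.8 and 22.8 in C48S with RA. It rose by 0.43 ± 0.11 in WT (adjusted p = 0.000389) and fell by 0.25 ± 0.088 in C48S (adjusted p = 0.0126), which leaves an interaction of -0.68 ± 0.14 (adjusted p = 0.000125). The fall in C48S no longer passed without the first undifferentiated C48S library (-0.20, adjusted p = 0.0757) or without the third C48S library with RA (-0.22, adjusted p = 0.0585). Before RA it was the member with the largest difference between the lines, 1.15 or 0.63 above the median of its chromosome.

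Gins2, also on chromosome 8, was at 48.8, 49.3 and 49.9 CPM in undifferentiated WT and 70.8, 67.2 and 88.7 in C48S. With RA it was at 44.6, 40.3 and 42.7 in WT and 46.5, 49.2 and 43.8 in C48S. Its fall of 0.22 in WT was not called without the second WT library with RA (-0.16, adjusted p = 0.125), and it fell by 0.70 in C48S, for an interaction of -0.49 ± 0.12 (adjusted p = 0.00096). Gins4, on the same chromosome, was at 64.8, 69.4 and 68.1 CPM in undifferentiated WT, 90.2, 82.9 and 99.3 in C48S, 44.7, 46.8 and 43.8 in WT with RA, and 58.9, 53.5 and 55.6 in C48S with RA. It fell in both lines, by 0.58 and 0.70. Gins1, on chromosome 2, was the GINS gene that was lower in C48S. Its libraries were at 32.8, 36.2 and 33.7 CPM in undifferentiated WT, 23.4, 23.4 and 27.9 in C48S, 24.9, 22.8 and 23.0 in WT with RA, and 17.5, 19.0 and 16.5 in C48S with RA. The differences were -0.46 before and -0.42 after RA, and it fell with RA by 0.54 and 0.50.

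The sliding clamp gene Pcna and 3 of the 5 clamp loader genes fell with RA in both lines. Of all genes tested 37.4% fell in WT and 34.6% in C48S. Pcna, whose start region is the last of the windows printed above, was at 307, 309 and 300 CPM in undifferentiated WT, 390, 398 and 419 in C48S, 150, 149 and 146 in WT with RA, and 172, 182 and 169 in C48S with RA. It fell by 1.04 ± 0.048 in WT and by 1.21 ± 0.047 in C48S. The interaction of -0.17 had an adjusted p of 0.0454, and leaving out any of 6 libraries took it to between 0.0533 and 0.0995. The loader genes that fell in both lines were Rfc1, Rfc2 and Rfc5, by 0.26 to 0.78 in WT and by 0.26 to 0.50 in C48S. With all libraries Rfc3 passed in no comparison (-0.13 with RA in WT, adjusted p = 0.144, and -0.16 in C48S, adjusted p = 0.0693).

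Rfc4 was the only member called higher with RA in C48S. It was at 29.5, 24.4 and 32.3 CPM in undifferentiated C48S and 36.0, 37.0 and 31.7 with RA, so the groups overlapped, and at 38.0, 44.4 and 38.4 and 42.8, 47.4 and 45.0 in WT. The change in C48S was 0.28 ± 0.093 (adjusted p = 0.00845), and without the second undifferentiated C48S library it was 0.15 (adjusted p = 0.156). It was lower in C48S by 0.49 before and 0.37 after RA, against the direction of Pcna, Rfc1 and Rfc5, which were higher in both states. Rfc5 was at 174, 179 and 177 CPM in undifferentiated WT, 211, 219 and 224 in C48S, 108, 108 and 93.0 in WT with RA, and 153, 157 and 156 in C48S with RA, with an interaction of 0.29 ± 0.075.

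Of the 3 RPA genes, whose proteins form a single complex on unwound DNA, Rpa2 and Rpa3 fell with RA in both lines and Rpa1 fell in neither. Rpa1 (chromosome 11, 75188992 to 75239150, minus strand) was at 437, 417 and 428 CPM in undifferentiated WT, 289, 285 and 324 in C48S, 481, 481 and 475 in WT with RA, and 285, 281 and 280 in C48S with RA. It rose by 0.17 ± 0.047 in WT (adjusted p = 0.002), where nearly all other members fell, and its change in C48S was -0.086 (adjusted p = 0.105), with an interaction of -0.25 ± 0.067. In C48S it was lower by 0.51 before and 0.76 after RA. Rpa2 fell by 1.00 in WT and by 0.85 in C48S. Rpa3, on chromosome 6, was at 29.6, 30.6 and 30.5 CPM in undifferentiated WT, 42.1, 49.2 and 68.5 in C48S, 14.7, 18.6 and 16.7 in WT with RA, and 31.0, 33.9 and 30.3 in C48S with RA. It fell by 0.85 ± 0.16 and by 0.74 ± 0.14, and was higher in C48S by 0.81 and 0.92, and the third undifferentiated C48S library is the high one. Per kb the order was Rpa1, Rpa2 and Rpa3 in undifferentiated WT (76.6 ± 1.76, 49.0 ± 3.15 and 26.6 ± 0.509), and with RA the distance between Rpa1 and Rpa3 in WT was wider (85.9 ± 0.628 and 14.7 ± 1.71).

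Of the 8 polymerase and primase genes, 7 fell in WT and 7 in C48S, against 37.4% and 34.6% of all genes tested. Pola1 and Pola2, of polymerase alpha, fell by 0.79 and 0.42 in WT and by 0.96 and 0.40 in C48S, and both were higher in C48S in both states, by 0.38 to 0.56. Prim1, the catalytic primase subunit, fell by 0.49 and 0.42, while Prim2, its large partner, rose in WT and fell in C48S. Prim2 (chromosome 1, 33492891 to 33708876, minus strand) was at 47.0, 43.9 and 40.7 CPM in undifferentiated WT, 53.7, 59.9 and 56.0 in C48S, 53.3, 55.2 and 60.9 in WT with RA, and 50.5, 44.4 and 51.0 in C48S with RA. It was thus high in the RA libraries of WT and the undifferentiated libraries of C48S. It rose by 0.36 ± 0.077 in WT (adjusted p = 6.67e-05) and fell by 0.21 ± 0.075 in C48S (adjusted p = 0.0117), with an interaction of -0.58 ± 0.11 (adjusted p = 4.1e-05). The fall in C48S did not pass without the second C48S library with RA (-0.15, adjusted p = 0.111), nor did the difference between the lines after RA of -0.21 (-0.16, adjusted p = 0.115).

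Pold1, the catalytic subunit of polymerase delta, fell by 0.94 in WT and by 0.45 in C48S, with an interaction of 0.49 ± 0.081 (adjusted p = 7.58e-06). Pold2, its partner on chromosome 11, was at 94.1, 102 and 88.5 CPM in undifferentiated WT, 63.6, 60.7 and 70.4 in C48S, 72.6, 66.1 and 60.9 in WT with RA, and 44.8, 40.9 and 46.0 in C48S with RA. It fell by 0.52 ± 0.071 in WT and by 0.56 ± 0.075 in C48S, and did not pass the interaction test. Pole, the catalytic subunit of polymerase epsilon, moved little, at 322, 321 and 331 CPM in undifferentiated WT and 302, 294 and 298 with RA. Its change was -0.12 in WT (adjusted p = 0.0204) and 0.044 in C48S (adjusted p = 0.418), and its interaction of 0.17 sat at an adjusted p of 0.0499. Pole2 fell by 0.45 in WT and by 0.20 in C48S (adjusted p = 0.026). The call in C48S was lost without the first (-0.15, adjusted p = 0.14) or the third (-0.21, adjusted p = 0.0506) C48S library with RA, or without the first undifferentiated C48S library (-0.18, adjusted p = 0.0797).

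Fen1 and Lig1, which trim and seal Okazaki fragments, fell by 0.89 and 0.70 in WT and by 0.93 and 0.59 in C48S, with no interaction called. In the supply of deoxynucleotides the cell-cycle regulated subunit Rrm2 stood out. Rrm2 (chromosome 12, 24758240 to 24764145, plus strand) was at 460, 472 and 425 CPM in undifferentiated WT, 718, 738 and 697 in C48S, 191, 195 and 198 in WT with RA, and 301, 293 and 272 in C48S with RA. It had the largest fall of any member in C48S, 1.31 ± 0.049 (2.49-fold, adjusted p = 1.13e-22), and fell by 1.22 ± 0.05 in WT. Its partner Rrm1 fell by 0.30 in WT and by 0.53 in C48S, so the ratio of Rrm2 to Rrm1 per kb was 8.06 ± 0.361 in undifferentiated WT and 4.29 ± 0.196 with RA, and 10.3 ± 1.04 and 5.94 ± 0.214 in C48S. Rrm2 was higher in C48S by 0.66 before and 0.57 after RA, off the 3 chromosomes named above.

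Tk1, of the thymidine salvage path, was at 142, 137 and 133 CPM in undifferentiated WT, 89.4, 89.8 and 88.7 in C48S, 52.1, 51.7 and 55.9 in WT with RA, and 37.0, 43.1 and 37.9 in C48S with RA. It fell by 1.37 ± 0.061 in WT and by 1.19 ± 0.064 in C48S. It lies on chromosome 11 and was lower in C48S by 0.62 and 0.44. Tyms fell by 1.04 in WT and by 0.63 in C48S, with an interaction of 0.41 ± 0.11 (adjusted p = 0.00195). Its undifferentiated libraries were at 96.4, 84.8 and 90.7 CPM in WT and 82.1, 86.5 and 67.2 in C48S, which overlap, and the difference of -0.20 was called with all libraries and not without the third C48S library (-0.098, adjusted p = 0.161).

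Some smaller values rested on single libraries. Those below are mostly lost calls, and gained calls are named only for Rfc3, Rfc4 and Rpa1 with RA. Between the undifferentiated lines, Prim1 (-0.20) did not pass without the third C48S library (-0.11, adjusted p = 0.136) or the third WT library (-0.19, adjusted p = 0.0534). Pole2 (0.21) did not pass without the third C48S library (0.20, adjusted p = 0.0519), the first C48S library (0.20, adjusted p = 0.0836), or the first or the third WT library (0.18, adjusted p = 0.106 for each). Tyms did not pass without the first WT library either (-0.16, adjusted p = 0.0869).

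After RA the small differences of Rfc1 and Lig1 between the lines (0.15 each) did not pass without the third WT library (0.11 each, adjusted p = 0.134 and 0.118) or the second C48S library (0.13 each, adjusted p = 0.0669 and 0.0525). Tyms (0.21) did not pass without any 1 of the first and the third WT and the first and the second C48S libraries (0.17 to 0.21, adjusted p from 0.0536 to 0.124). Orc3 (-0.17) did not pass without the third C48S library (-0.15, adjusted p = 0.065), nor Prim2 without the third WT library (-0.18, adjusted p = 0.0764).

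With RA in WT, Pole did not pass without the first WT library with RA (-0.12, adjusted p = 0.0643), the second (-0.10, adjusted p = 0.101) or the third undifferentiated WT library (-0.11, adjusted p = 0.0659). Rfc4, not called in WT with all libraries (0.16, adjusted p = 0.0983), passed without the second undifferentiated WT library (0.24, adjusted p = 0.0317) and without the third undifferentiated C48S library (0.17, adjusted p = 0.03). Rpa1 in C48S passed without the second undifferentiated C48S library (-0.15, adjusted p = 0.0125), and so did Rfc3 (-0.25, adjusted p = 0.0115), which also passed without any 1 undifferentiated WT library or the third WT library with RA (adjusted p from 0.0419 to 0.0476). The interaction of Rrm1 (-0.23) did not pass without the second WT library with RA (-0.20, adjusted p = 0.0558). That of Pole (0.17) did not pass without 10 of the 12 libraries, left out in turn (0.10 to 0.17, adjusted p from 0.0719 to 0.166).

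Beside the members, 40 other replication genes were read from a list of regulators, chromatin assembly factors and further fork proteins. With RA 26 fell and 6 rose in WT (median -0.48), which is 65.0% and 15.0%, against 37.4% and 40.9% of all genes tested. In C48S 31 fell and 3 rose (median -0.54), which is 77.5% and 7.5%, against 34.6% and 39.0%. Ticrr, which helps to load Cdc45, fell by 2.35 ± 0.048 in WT and by 1.80 ± 0.047 in C48S, from 676 ± 9.26 to 133 ± 4.16 CPM in WT (SD, n = 3). Uhrf1, which brings DNA methylation to new strands, fell by 1.21 and 1.18. Pclaf, a Pcna partner, went the other way, with a rise of 1.85 ± 0.094 in WT and of 0.40 ± 0.083 in C48S and an interaction of -1.45 ± 0.13. In this list 5 interactions were positive (12.5%) and 12 negative (30.0%), against 22.2% and 17.2% of all genes. Between the lines 19 were higher and 9 lower before RA (47.5% and 22.5%, against 27.5% and 28.1%), and 16 and 10 after it (40.0% and 25.0%, against 28.8% and 25.7%).

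Of 25 mitosis genes, 16 fell and 3 rose with RA in WT (median -0.28), which is 64% and 12%, against 37.4% and 40.9% of all genes tested. In C48S 12 fell and 7 rose (median -0.081), which is 48% and 28%, against 34.6% and 39.0%. Aurka, a spindle pole kinase, fell by 1.52 and 1.08, and the proliferation marker Mki67 rose by 0.61 in WT and 0.39 in C48S. The interaction was positive for 14 (56.0%, against 22.2% of all genes), Cdc20 (0.76 ± 0.067) first among them, and negative for 1, Mad2l1 (4.0%, against 17.2%). Between the lines 4 were higher and 10 lower before RA (16.0% and 40.0%, against 27.5% and 28.1%), and 13 and 4 after it (52.0% and 16.0%, against 28.8% and 25.7%). Of 13 E2F and pocket protein genes, which control transcription at entry into S phase, 5 rose and 7 fell with RA in each line. The 38.5% that rose is near the 40.9% (WT) and 39.0% (C48S) of all genes tested, and 53.8% fell against 37.4% and 34.6%. Rb1 rose by 1.25 and 1.14, E2f4 fell by 0.98 and 1.03, and Tfdp1 fell by 0.90 and 0.96. E2f4 and Tfdp1 lie on chromosome 8 and were higher in C48S in both states, by 0.86 to 1.02. In this list 7 genes were higher and 3 lower in C48S before RA (53.8% and 23.1%, against 27.5% and 28.1% of all genes), and 7 and 1 after it (53.8% and 7.69%, against 28.8% and 25.7%). There were 2 positive and 2 negative interactions (15.4% each, against 22.2% and 17.2%).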

How the data were processed

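Total RNA depleted of ribosomal RNA was sequenced from 12 libraries (4 groups of 3), per the labels' protocols. The values are raw counts of read pairs per gene, deposited by the authors and made, per the file headers, with featureCounts 1.6.3 (strand option 2, each pair to the gene of largest overlap) on Ensembl release 104 of GRCm39. STAR 2.7.9a, DESeq2 and mm39 are named in the submitters' processing notes. Pairs that match near-identical copies of a gene may be lost or split by such counting.

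Symbols came from the GENCODE M21 table (52083 of 55416 identifiers, 94.0%). Genes were filtered with edgeR's filterByExpr (minimum count 10), scaled by TMM and fitted in edgeR 4.0.16 (limma 3.58.1, R 4.3.3) with 4 group means over the 12 libraries (8 residual degrees of freedom). C48S was compared with WT before and after RA, RA with the undifferentiated state in each line, and the RA changes with each other (interaction). The SE was the log2 change over the square root of F. Levels per kb divide CPM by the length of all annotated exons, which can exceed the transcript's. The fitting code was tested on simulated data. The labels do not say whether libraries of a group came from separate cultures, and the p-values therefore reflect library-to-library variation that could be technical.

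The members and lists were chosen with earlier results of these data known. Library values were printed for the 3 largest called rises and falls of each comparison, for called members that went against their role, and for members on chromosomes 6, 8 and 11; from other lists up to 3 genes per direction with the smallest adjusted p; start regions for the 6 members with the largest mean RA change in the table. Alternatives were RLE scaling, TMM without chromosomes 6, 8, 11 and Y, DESeq2 1.42.0, other low-count filters, a fold of 1.5 as the null, the compared groups alone, a replicate block, and each library left out. Same-numbered libraries did not deviate together (correlations of deviations -0.0529 to 0.029), so the numbers were not taken as pairs.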

Additional observations from a re-analysis of the deposited data

Results flagged for a closer look

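The RA change differed between the lines, by the interaction test, for 20 of the 44 members. It was positive for 27.3% of the members and negative for 18.2%, shares near those of all genes tested (22.2% and 17.2%). Values are the log2 change in C48S minus that in WT. In the helicase ring it was 0.87 for Mcm2, 0.35 for Mcm3, 0.55 for Mcm4, 0.34 for Mcm5, 0.36 for Mcm6 and 0.33 for Mcm7. Among the factors that recognise and fire origins it was 0.43 for Orc2 and 0.55 for Cdc45, and -0.37 for Orc6, -0.49 for Gins2 and -0.68 for Gins3. At the fork it was 0.29 for Rfc5, 0.49 for Pold1 and 0.17 for Pole, and -0.17 for Pcna, -0.24 for Rfc1, -0.25 for Rpa1 and -0.58 for Prim2. In the supply of deoxynucleotides it was 0.41 for Tyms and -0.23 for Rrm1. Of the 20, Mcm2, Mcm5, Orc6, Gins2, Gins3 and Rpa1 lie on the chromosomes whose level differed between the lines in both states. Over the protein-coding genes of those chromosomes the median interaction was 0.082 (chromosome 6), 0.048 (chromosome 8) and 0.042 (chromosome 11).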

How the results depend on the processing

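None of the 168 called member values changed sign under any alternative run; the values that did were uncalled, at most 0.12 in size (log2). With a fold of 1.5 as the null, 2 members were higher and 0 lower in C48S before RA (Gins3, Orc6). After it 3 were higher (Mcm2, Mcm5 and Rpa3) and 1 lower (Rpa1). With RA 0 rose and 25 fell in WT, and 0 rose and 17 fell in C48S. Of the interactions 1 was positive (Mcm2) and 0 negative. In each of these counts fewer members pass because the test asks for a larger change. The share of all genes passing this null is not given here, so the counts do not set the members apart from other genes. Leaving out each library in turn, the undifferentiated median between the lines ran from -0.059 to 0.083, the members rising with RA in C48S from 0 to 1, and the RA change of Pole in C48S, which was not called, from -0.011 (without the third undifferentiated C48S library) to 0.078. With the replicate block the interaction of Pole was 0.17 (adjusted p = 0.0512) and 11 interactions were positive; no other call of a member changed under the block. Under RLE scaling and DESeq2 respectively, these calls were lost: the interaction of Pole (0.14 each, adjusted p = 0.0907 and 0.116), Pole2 before RA between the lines (0.19 each, 0.0573 and 0.0963), Rfc1 (0.10 each, 0.0791 and 0.117), Lig1 (0.11 each, 0.0675 and 0.105) and Tyms (0.16 each, 0.069 and 0.117) between the lines after RA, and Pole with RA in WT (-0.10 each, 0.0526 and 0.0659). DESeq2 also lost Gins2 with RA in WT (-0.19, adjusted p = 0.0692). With no low-count filter the interactions of Pcna (-0.18, adjusted p = 0.0695) and Pole (0.16, 0.124) and the undifferentiated difference of Pole2 (0.22, 0.0636) were lost. The interaction of Pole was lost too with TMM without chromosomes 6, 8, 11 and Y (0.16, adjusted p = 0.0649) and with the filter of 1 CPM in 3 libraries (0.17, 0.0526). With the compared groups alone Pole2 was lost before RA between the lines (0.20, adjusted p = 0.0623) and with RA in C48S (-0.18, 0.0654), and Rfc4 with RA in WT was gained (0.18, 0.0195). All 6 ring interactions were called under every alternative that gave an interaction test but the fold of 1.5. The compared groups alone gave none. The 8-base E2F-type letters (TTTCCCGC, TTTGGCGC, TTTGCCGC or TTTCGCGC) were present for 38.9% of the members in the table and 4.47% of the tested genes. With 3 libraries a group and a common biological coefficient of variation of 0.0549, the smallest called change of a member was 0.12 in size (Pole with RA in WT).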
